A study of Rattus norvegicus with 10 samples.

Results

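The genes described here are 10 transcripts that neurons switch on after stimulation: the nuclear receptor genes Nr4a1, Nr4a2 and Nr4a3, the zinc finger factor genes Egr1, Egr2, Egr3 and Egr4, the synaptic genes Arc and Homer1, and the transcription factor gene Npas4. Every probe set of the array whose annotation named exactly 1 gene symbol, equal to one of these, was taken. That gave 18 probe sets for 9 of the genes, out of 31042 probe sets in all (14217 genes had a probe set of a single symbol), and no probe set carried Npas4 as its single symbol, so the expression of Npas4 was not analysed here. The 18 were 1 each for Nr4a1, Egr1, Egr3 and Arc, 2 each for Nr4a2, Egr2 and Egr4, 3 for Nr4a3 and 5 for Homer1. A further probe set annotated with both Hax1 and Homer1 was left out.

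The RNA came from the hypothalamic paraventricular nucleus of male Sprague Dawley rats aged 10 to 12 weeks. One set of rats had been dehydrated for 3 days, and the other rats were euhydrated controls. Each of the 5 dehydrated and 5 control arrays carried RNA pooled from 5 animals, and the pools of a group came from separate sets of animals. The sample labels name the paraventricular nucleus, but in the design text the supraoptic nucleus is named instead. The labels were followed. Vasopressin (Avp) had signals of 4956 ± 643 in dehydrated and 3531 ± 633 in control pools (SD, n = 5 each), and the parvocellular hormone gene Crh 320 ± 89.7 and 282 ± 94.3, so hormone genes of both magnocellular and parvocellular neurons were measured. Oxytocin (Oxt, 4861 ± 605 and 4090 ± 389), Trh (651 ± 44.7 and 615 ± 56.5) and the developmental factor gene Sim1 (79.2 ± 16.5 and 62.1 ± 15.4) were measured too, and none of the 5 passed the test described further on (adjusted p from 0.0504 for Avp to 0.726 for Crh). The chip names run in 1 block per group save that of control replicate 5, so array batch and treatment cannot be told apart. In such whole-tissue pools fewer cells of a type and less RNA per cell cannot be told apart.

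The Nr4a receptors are orphan nuclear receptors whose activity is set mainly by how much of them is made. The Egr proteins bind GC-rich sites through their zinc fingers and are held back by the co-repressors Nab1 and Nab2. Calcium and cAMP signals reach these genes through CREB and serum response factor, which bind the cAMP response element (CRE) and the CArG box of the serum response element. The transcripts typically peak soon after a stimulus and then decline. Arc protein takes part in the removal of AMPA receptors from synapses, and Homer proteins link metabotropic glutamate receptors to intracellular calcium channels. In magnocellular neurons osmotic stimulation is a known inducer of this class of genes.

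The promoter windows that follow are those of Egr1, the member with the brightest probe set, of Egr2 as a relative with the same kind of element, and of Nr4a1. They come from RefSeq (build GRCr8) and run from 250 bases before to 50 bases after the annotated start, 5′ to 3′ along the gene. Capitals mark matches to the motifs searched on both strands: the CRE TGACGTCA, its core TGACG (which reads CGTCA on the other strand), the CArG box, the Egr site GCGNGGGCG and the Nr4a monomer site (NBRE) AAAGGTCA. A full CRE would contain the core.
Egr1, chr18:26736828-26737127, plus strand: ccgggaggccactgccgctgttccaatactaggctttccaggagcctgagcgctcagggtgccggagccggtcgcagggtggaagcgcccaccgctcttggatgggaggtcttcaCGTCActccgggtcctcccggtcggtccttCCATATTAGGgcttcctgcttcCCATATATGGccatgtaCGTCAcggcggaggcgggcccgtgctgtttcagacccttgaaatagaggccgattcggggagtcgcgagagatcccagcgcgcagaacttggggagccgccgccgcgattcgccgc
Egr2, chr20:21054392-21054691, minus strand: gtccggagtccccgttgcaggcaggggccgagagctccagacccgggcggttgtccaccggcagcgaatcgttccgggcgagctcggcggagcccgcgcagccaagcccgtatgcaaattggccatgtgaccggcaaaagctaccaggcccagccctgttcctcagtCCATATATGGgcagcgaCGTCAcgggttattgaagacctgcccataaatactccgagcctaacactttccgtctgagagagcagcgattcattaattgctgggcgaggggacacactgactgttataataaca
Nr4a1, chr7:134259888-134260187, plus strand: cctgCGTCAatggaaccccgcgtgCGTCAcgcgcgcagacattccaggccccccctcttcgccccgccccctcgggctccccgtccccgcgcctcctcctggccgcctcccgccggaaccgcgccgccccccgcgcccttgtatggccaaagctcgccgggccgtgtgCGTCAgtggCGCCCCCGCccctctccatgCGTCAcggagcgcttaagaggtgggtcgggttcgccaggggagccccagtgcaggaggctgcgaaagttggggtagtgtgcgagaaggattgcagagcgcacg

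RefSeq windows were at hand for 7 of the 10 genes, Npas4 included. The CArG box was found in 2 of the 7, those of Egr1 and Egr2, and in 1.64% of all 33469 promoter windows. Egr1 held 2 such boxes, starting 105 and 83 bases before the gene start, and Egr2 held 1, which also started 83 bases before it. The CRE core was found in 5 of the 7 (Nr4a1, Nr4a2, Egr1, Egr2 and Egr4), against 21.2% of all windows, and Nr4a1 held 4 copies. The Egr site was found in Nr4a1 alone of the 7, against 4.98% of all windows. The full CRE (1.83% of all windows) and the NBRE (1.43%) were found in none of the 7 windows. These are matches of letters in a short window and say nothing of binding.

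**Figure D1:**
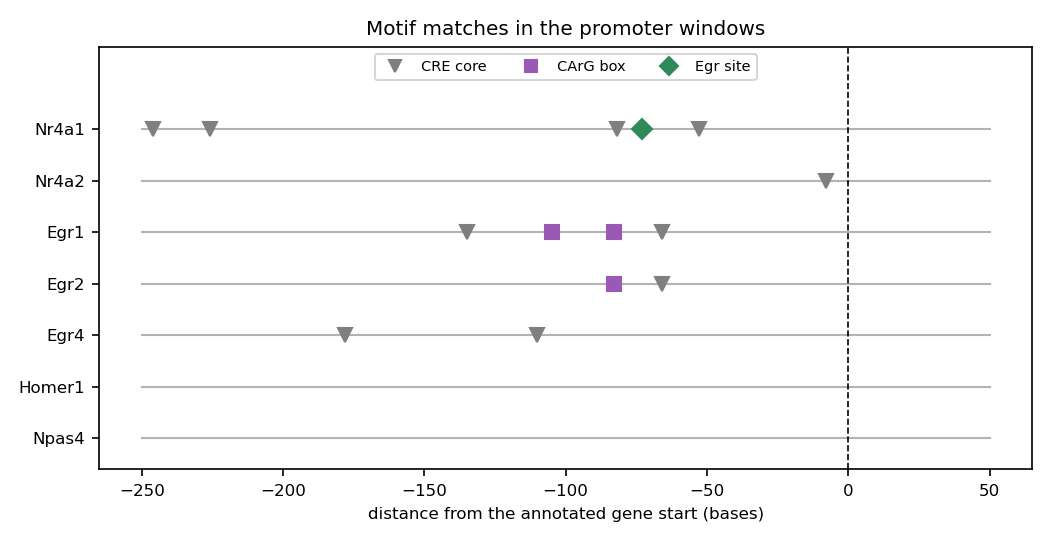
Positions of motif matches in the promoter windows of 7 genes, in bases from the annotated gene start (dashed line). Triangles are CRE cores, squares CArG boxes and the diamond an Egr site. Both CArG boxes of Egr1 and the one of Egr2 lie within 105 bases of the start, and the windows of Homer1 and Npas4 have no match.

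The deposited values are linear array signals on a shared scale, with medians between 36.4 and 39.1. Pairs of arrays correlated at 0.961 to 0.986 on the log2 scale. Control replicate 5 was the most distant array: its score on the leading principal component (20.7% of the variance) was 37.2, while the others scored between -14.4 and 3.69. It also had the lowest array weight, 0.385. Its log2 ratios of 3 prime to 5 prime signal were the lowest as well, 1.05 for GAPDH and 2.165 for beta-actin. The highest arrays had 1.84 and 3.07. Between the groups these ratios did not differ clearly (exact permutation p = 0.254 and 0.516). On the leading component every dehydrated array scored below every control array (exact permutation p = 0.00794). Differences are given on the scale log2(signal + 3.72), dehydrated minus control, with the standard error of the fit. The groups were compared with limma over all 18629 probe sets whose mean signal reached 24.1, the 40th percentile, and p-values were adjusted by Benjamini-Hochberg over all of them.

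After 3 days of dehydration, none of the activity genes passed the test. Of the 18 probe sets 9 passed the filter on dim signals, standing for Nr4a1, Nr4a2, Nr4a3, Egr1, Arc and Homer1. In limma 0 of these 9 reached an adjusted p of 0.05, against 0.580% of all probe sets tested (108 of 18629). Without a filter 0 of the 18 were called, against 0.206% of 31042. The exact permutation test over all assignments of the arrays called 0 as well, but its smallest adjusted p over the whole table was 0.236, so it could call nothing. Dehydrated and control signals overlapped for all 18, while 3.36% of the probe sets past the filter had groups that did not overlap. The differences of the 9 probe sets were 6 positive and 3 negative, with a median of 0.03, where the median of all tested probe sets was -0.005. Taken without sign, the median difference was 0.28, against 0.10 for all tested probe sets. The median residual SD was 0.22, against 0.18. In simulated data with the spread of the tested probe sets, limma called 36.8% of true log2 differences of 0.4 and 84.0% of those of 0.8. Those differences were placed on probe sets drawn from all that were tested, not on the members. The shares are therefore not those for the 9, whose median residual SD was larger, and no difference as small as 0.28 was simulated. Before adjustment, p was under 0.05 for 4 of the 9 (Egr1, 1 probe set of Nr4a3, Arc and 1 of Homer1), and for 12.7% of all tested probe sets. The 95% intervals of the 9 lay between -0.74 and 0.72 on the log2 scale.

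**Figure D2:**
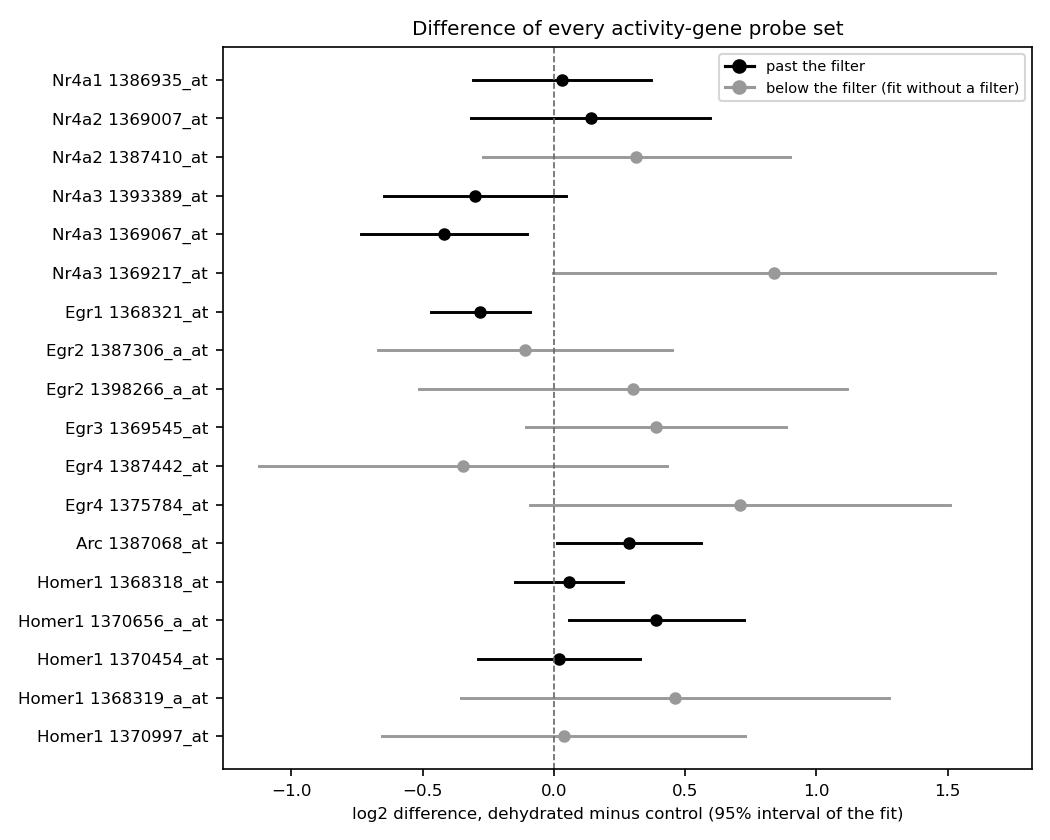
Log2 difference (dehydrated minus control) of all 18 probe sets with the 95% interval of the limma fit. Black marks the 9 probe sets past the filter on dim signals and grey the 9 below it, whose values come from the fit without a filter. The black intervals stay between -0.74 and 0.72, and the grey ones are wider.

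Among the nuclear receptor genes, Nr4a1 (Nur77) had nearly the same mean signal in the 2 groups. Its probe set 1386935_at read 42.6, 49.6, 29.1, 37.8 and 53.7 in the dehydrated pools and 38.5, 40.1, 33.4, 43.3 and 50.1 in the control pools. The highest and the lowest pool of all were both dehydrated, and the dehydrated range enclosed every control pool. The log2 difference was 0.03 ± 0.16 (adjusted p = 0.956), with a 95% interval from 0.808-fold to 1.29-fold.

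Nr4a2 (Nurr1), known for its role in dopamine neurons, had the widest spread within groups of the 9 probe sets past the filter. Probe set 1369007_at read 42.6, 40.6, 65.7, 29.4 and 26.2 in dehydrated pools and 51.6, 37.0, 30.7, 34.3 and 25.7 in control pools. Dehydrated replicate 3 stood highest, and 4 of the 5 dehydrated pools lay within the control range. The difference was 0.14 ± 0.22 (adjusted p = 0.826), and the interval reached from 0.804-fold to 1.51-fold. Its residual SD was 0.413 (log2), where the median of all tested probe sets was 0.178. The second Nr4a2 probe set, 1387410_at, lay between 1.1 and 11.4 on all arrays, below the filter.

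Nr4a3 (Nor1) was lower in dehydrated pools by both of its probe sets past the filter, without passing the test. Probe set 1369067_at read 31.3, 37.0, 35.8, 35.7 and 25.3 in dehydrated pools and 56.4, 49.4, 35.5, 47.1 and 39.5 in control pools. Of the control pools 4 lay above every dehydrated pool, and control replicate 3 lay among them. The difference was -0.42 ± 0.15 (adjusted p = 0.254, exact permutation p = 0.0318).

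The other Nr4a3 probe set past the filter, 1393389_at, read 28.0, 45.5, 31.9, 33.0 and 40.9 in dehydrated pools and 61.3, 39.5, 48.0, 42.0 and 35.1 in control pools. Here 3 dehydrated pools lay below every control pool and 2 lay among them. The difference was -0.30 ± 0.16 (adjusted p = 0.458), and -0.19 (adjusted p = 0.685) without control replicate 1, the pool at 61.3. The probe set below the filter, 1369217_at, pointed the other way, with 24.3, 26.8, 20.2, 30.6 and 8.1 in dehydrated pools and 5.7, 2.3, 15.1, 11.9 and 23.5 in control pools (log2 0.84 ± 0.39, adjusted p = 0.478 without a filter). Between the first 2 probe sets, the deviations of the 10 pools from their group means correlated weakly (Pearson r = 0.23, exact permutation p = 0.553, Spearman rho = 0.28, exact permutation p = 0.459, and r = -0.50 without the 2 pools farthest from the median). Both probe sets past the filter were thus lower in dehydrated pools on average, while the 95% interval of the one below it ran from -0.004 to 1.68.

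Egr1 (zif268, NGFI-A) had the smallest p of the members, with a lower mean in dehydrated pools, and did not pass the test. Its single probe set, 1368321_at, read 166.3, 183.8, 188.8, 171.6 and 186.1 in dehydrated pools and 255.3, 200.3, 225.0, 234.9 and 183.6 in control pools. The dehydrated pools lay close together (179 ± 9.81) and the control pools were spread (220 ± 28.3, SD, n = 5 each). All overlap came from control replicate 5, which read 183.6, since the other 4 control pools lay above every dehydrated pool. The difference was -0.28 ± 0.09 (adjusted p = 0.194, exact permutation p = 0.0318), which corresponds to 0.823-fold with a 95% interval from 0.723-fold to 0.938-fold. Without control replicate 5, the array that stood apart, the difference was -0.34 (adjusted p = 0.0583), and without it and dehydrated replicate 2 it was -0.35 (adjusted p = 0.0538). The removal of these 2 arrays together was added after seeing the data. With array weights the adjusted p in limma was 0.0726. Other settings raised it, to 0.357 without control replicate 1 (difference -0.23) and 0.333 without dehydrated replicate 4. It was 0.265 without the variance trend and 0.259 without a filter. In the same pools, all 7 measured oligodendrocyte markers had negative differences (median -0.28, 1 past the threshold, Ermn), none was at 0, and their summed signal was 6619 to 6834 in dehydrated and 7064 to 8525 in control pools. Of the red blood cell markers both tested had negative differences, and Hbb passed (-0.67, adjusted p = 0.0304). No marker passed among 4 of microglia and macrophages (4 negative, median -0.18), 6 of astrocytes (5 negative, median -0.12) and 4 of the surrounding lateral, anterior and posterior hypothalamus (3 negative, median -0.58, 3 at an unadjusted p under 0.05). Endothelial markers went the other way (5 of 6 positive, median 0.15), as did those of paraventricular neurons (6 of 6, median 0.30). Of general neuron markers 4 of 5 were negative (median -0.09), and of arcuate markers 1 of 2 (-0.11). Thalamus had 2 of 3 negative (-0.04), and striatum and cortex 3 of 3 (-0.04). No marker of these other lists passed. Over all tested probe sets 0.580% passed in limma, 12.7% had an unadjusted p under 0.05 and 48.8% had positive differences. The part of any of these cell types in the Egr1 difference was not tested.

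The other Egr genes were too dim for the filter. Egr2 (Krox20), which is also known as a regulator of myelination in Schwann cells, had 17.2 ± 8.02 in dehydrated and 17.9 ± 4.50 in control pools by probe set 1387306_a_at, and 7.50 ± 6.60 and 4.50 ± 2.83 by 1398266_a_at. Egr3 had 20.6 ± 4.13 in dehydrated and 15.3 ± 5.82 in control pools. The 2 probe sets of Egr4 differed in sign, with 11.2 ± 7.41 in dehydrated and 13.5 ± 4.26 in control pools by 1387442_at, and 14.4 ± 9.63 and 6.94 ± 4.57 by 1375784_at. Over the 9 probe sets below the filter, single signals ran from 1.1 to 30.6, and adjusted p without a filter from 0.478 to 0.979. The 95% intervals of the Egr3 difference ran from -0.11 to 0.89 on the log2 scale, those of Egr2 from -0.67 to 0.45 and from -0.51 to 1.12, and those of Egr4 from -1.12 to 0.43 and from -0.09 to 1.51.

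**Figure D3:**
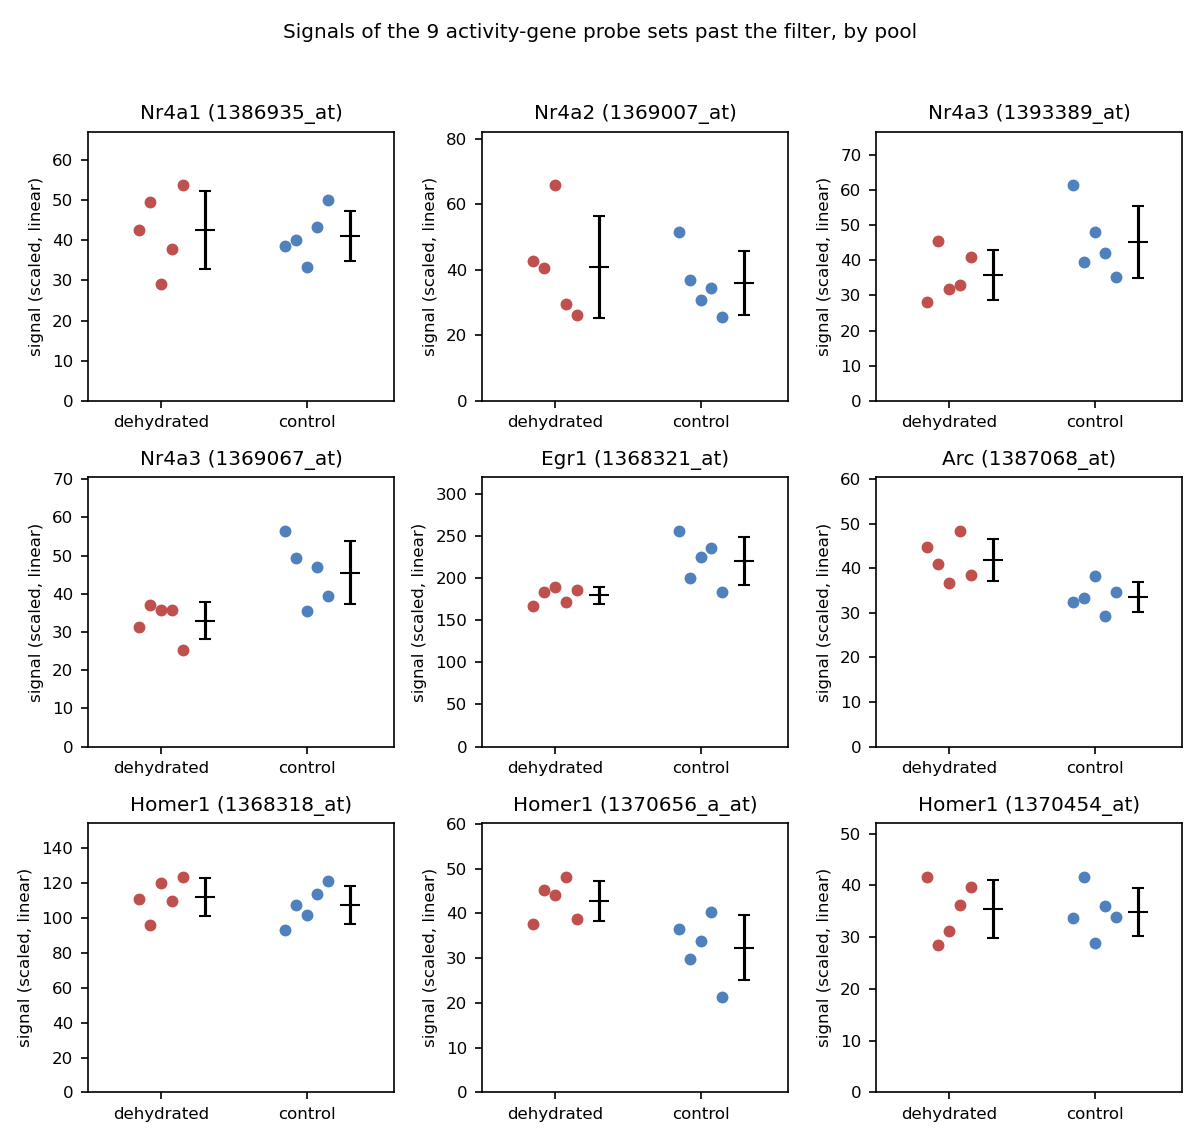
Linear signal in each pool for the 9 probe sets past the filter, dehydrated (red) left of control (blue), with mean and SD in black. Dehydrated Egr1 sits at 179 ± 9.81 against 220 ± 28.3 in control, dehydrated Arc at 41.8 ± 4.73 against 33.6 ± 3.32, and the points of the groups overlap in every panel.

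Arc, the activity-regulated cytoskeleton-associated gene, was higher in most dehydrated pools but did not pass. Probe set 1387068_at read 44.8, 40.9, 36.7, 48.3 and 38.4 in dehydrated pools and 32.4, 33.4, 38.3, 29.2 and 34.7 in control pools. Of the dehydrated pools 4 lay above every control pool, and the overlap was between dehydrated replicate 3 and control replicate 3. The difference was 0.29 ± 0.13 (adjusted p = 0.377, exact permutation p = 0.0159), with a 95% interval from 1.01-fold to 1.47-fold. Its residual SD within groups was 0.139, the lowest of the 9 probe sets past the filter. The difference was positive in every other setting of limma tried, from 0.12 to 0.33, with adjusted p from 0.248 to 0.552.

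Homer1, which has a short activity-induced form and long constitutive forms, had 5 probe sets, all with positive differences and none past the threshold. The annotation used here does not pair probe sets with forms. The brightest, 1368318_at, read 111.0, 95.8, 120.2, 109.8 and 123.5 in dehydrated pools and 92.9, 107.3, 101.9, 113.8 and 121.5 in control pools. These ranges were nearly the same (log2 0.06 ± 0.10, adjusted p = 0.843), and the 95% interval ran from 0.903-fold to 1.20-fold. Probe set 1370656_a_at read 37.7, 45.2, 44.2, 48.1 and 38.8 in dehydrated pools and 36.6, 29.7, 33.8, 40.2 and 21.2 in control pools. There 4 control pools lay below every dehydrated pool, and the difference was 0.39 ± 0.16 (adjusted p = 0.316, exact permutation p = 0.0318). Its lowest value, 21.2, was that of control replicate 5, and without that array the difference was 0.26 (adjusted p = 0.396).

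Homer1 probe set 1370454_at read 28.5 to 41.6 in dehydrated and 28.9 to 41.6 in control pools (log2 0.02 ± 0.15). The dim pair 1368319_a_at and 1370997_at had 10.3 ± 5.74 and 7.18 ± 4.71 in dehydrated pools, and 6.40 ± 4.35 and 6.74 ± 3.73 in control pools. Between the Homer1 probe sets past the filter, the r of deviations from the group means was -0.50, 0.40 and -0.25 for the 3 pairs (exact permutation p from 0.176 to 0.483, Spearman rho -0.54, 0.44 and -0.32 with exact permutation p from 0.125 to 0.379, and Pearson r -0.46, 0.05 and -0.67 without the 2 farthest pools), and no p passed after adjustment over the 4 pairs of same-gene probe sets (0.553 each).

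Whether the activity genes rise and fall together from pool to pool, apart from the treatment, was examined on log2 signals after the group mean was subtracted, with the brightest probe set of each of 6 genes. Over the 15 pairs, the median r was -0.28 and 5 pairs were positive, where the median over all pairs of tested probe sets was 0.00. The median over the 15 pairs was -0.16 without control replicate 1, -0.17 without control replicate 5 and -0.18 without dehydrated replicate 5. With every probe set of these genes past the filter, in place of the brightest, it was -0.19. The highest was that of Nr4a3 and Egr1 (r = 0.77, exact permutation within groups p = 0.0137, adjusted p = 0.205 by exact permutation, rho = 0.72, exact permutation p = 0.0403, and r = 0.70 without the 2 farthest pools). The lowest was that of Nr4a3 and Homer1 (r = -0.68, exact permutation p = 0.049, adjusted p = 0.367 by exact permutation, rho = -0.59, exact permutation p = 0.102), which shrank to -0.11 without the 2 farthest pools. No pair passed after adjustment over the 15 (exact permutation, 2 pairs at an unadjusted p under 0.05). Nr4a3 was represented by 1393389_at, nearly equalled in mean signal by 1369067_at (40.5 and 39.3). The deviations of those probe sets correlated at only r = 0.23, so the Nr4a3 pairs can depend on the probe set chosen. The Homer1 probe sets past the filter correlated with each other at r of -0.50, 0.40 and -0.25, so the same holds for the Homer1 pairs, represented by 1368318_at.

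Fos, the AP-1 subunit gene most used as a marker of neuronal activation, was set beside the same 6 genes, a comparison added after the data had been seen. Fos itself read 134.8, 163.7, 159.9, 117.0 and 156.4 in dehydrated pools and 194.6, 140.0, 127.5, 142.6 and 94.2 in control pools (log2 0.09 ± 0.15, adjusted p = 0.840). Egr1 deviated with Fos (r = 0.86, exact permutation within groups p = 0.0085, adjusted p = 0.0508 by exact permutation over the 6 genes, rho = 0.75 with exact permutation p = 0.0178). Control replicate 1 was high in both genes and control replicate 5 low in both. Those 2 pools were the farthest from the median, and r was 0.52 without them, so the relation rests in part on them.

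For Nr4a3 r with Fos was 0.74 (exact permutation p = 0.0267, rho = 0.76 with exact permutation p = 0.0237), and 0.49 without its 2 farthest pools. For Nr4a2 it was 0.65 (exact permutation p = 0.0353, rho = 0.50 with exact permutation p = 0.166), and 0.92 without its 2 farthest pools. Nr4a1, Arc and Homer1 had r of -0.17, -0.55 and -0.54 (exact permutation p from 0.0983 to 0.607, rho -0.05, -0.70 and -0.36 with exact permutation p from 0.0428 to 0.898, and r -0.19, -0.44 and -0.06 without the 2 farthest pools). The adjusted p over the 6 genes ran from 0.0508 to 0.607 by exact permutation, so none passed. All these correlations share the same 10 arrays and their scaling. The Nr4a3 values are again those of probe set 1393389_at alone, and the Homer1 values those of 1368318_at alone.

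**Figure D4:**
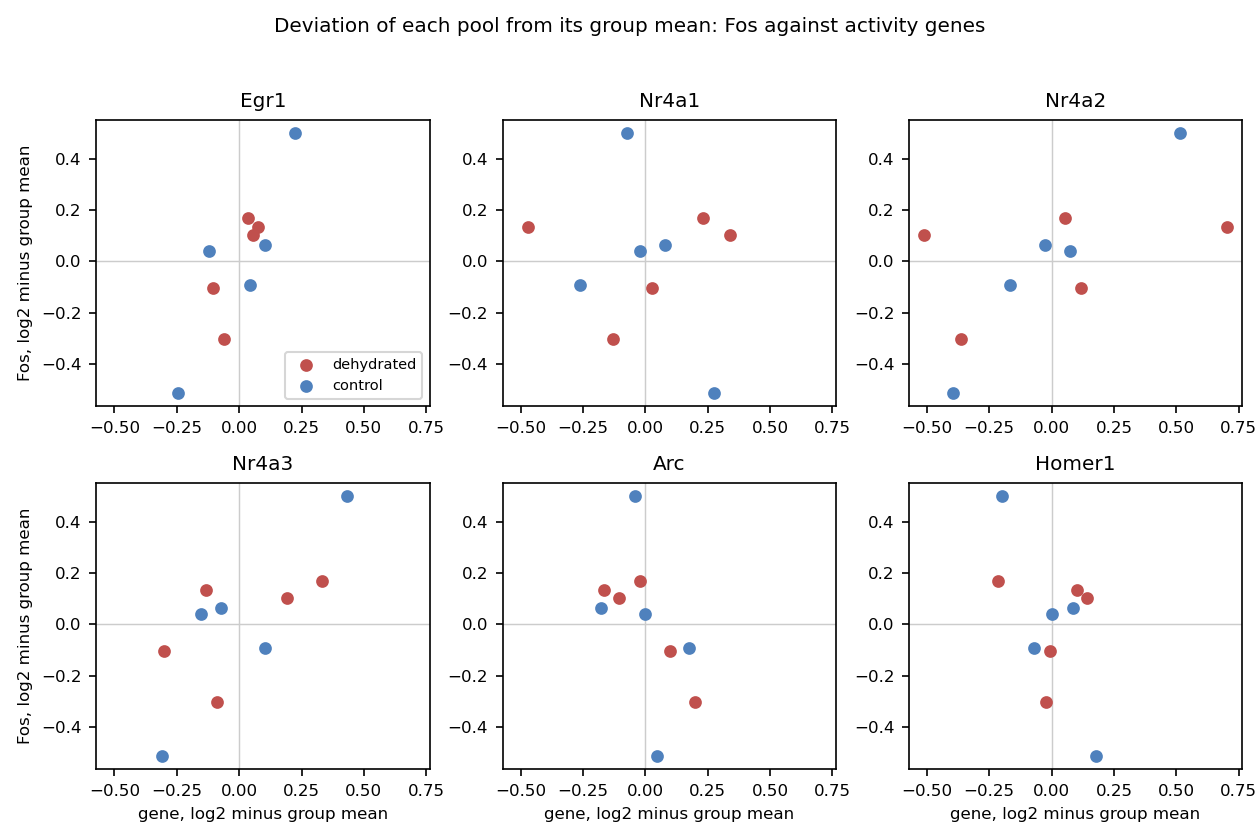
Deviation of each of the 10 pools from its group mean (log2), for 6 activity genes on the horizontal axis against Fos on the vertical axis, dehydrated in red and control in blue. Egr1, Nr4a2 and Nr4a3 slope upwards with r of 0.86, 0.65 and 0.74, and the extreme points of the Egr1 panel are control replicates 1 and 5.

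The probe sets most like a member over the 10 pools, with group means removed and 18628 probe sets compared, were of other gene families. For Egr1 they were those of Tbc1d19 (r = 0.97), Eola2 (0.96) and Ripor2 (0.95), and for Nr4a1 those of St3gal4 (0.94), Ccdc43 (0.93) and Zfp143 (0.93). For Arc they were Pcif1 (0.97), Lgr6 (0.95) and C2cd2l (0.93), and for Homer1 Nrcam (0.95), Anapc15 (0.94) and Azi2 (0.93). These are descriptions with no test. None of the genes named here passed the test for dehydration (adjusted p from 0.145 to 0.992).

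The molecular partners of the members were largely without a call. Of 6 tested partners of the Nr4a receptors, among them the retinoid X receptor Rxrg (log2 0.12, adjusted p = 0.732) and the coactivator Ncoa3 (0.31, adjusted p = 0.549, other tested probe set 0.02), with Ncoa1 at -0.02 and Nrip1 at -0.04, 0 passed in limma, 0 at an unadjusted p under 0.05, and the median difference was -0.01. Of 9 partners and co-repressors of the Egr factors, 1 fell and 8 did not pass (median 0.08, 4 at an unadjusted p under 0.05). Over all tested probe sets 0.580% passed in limma and 12.7% had an unadjusted p under 0.05. The one that fell was Ep300, the p300 acetyltransferase, at 259.2, 315.7, 247.3, 242.0 and 279.2 in dehydrated pools and 311.8, 350.3, 351.2, 353.0 and 358.3 in control pools. All dehydrated pools but replicate 2 lay below every control pool. Its difference was -0.36 ± 0.08 (adjusted p = 0.0474), and the removal of any of 9 arrays or any of 4 other settings ended that call, with adjusted p up to 0.133. The co-repressor genes Nab1 and Nab2 had differences of 0.22 (adjusted p = 0.340) and 0.21 (adjusted p = 0.617), and the serum response factor gene Srf 0.18 (adjusted p = 0.388). Elk3 had groups that did not overlap (log2 0.30, adjusted p = 0.256 in limma), as had 3.36% of all tested probe sets. Its other tested probe sets were at 0.16 and -0.16. Nab1, Nab2, Srf and Elk3 were named after their values were seen.

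Of 15 synaptic partners of Homer1 and Arc, 0 passed in limma, 3 had an unadjusted p under 0.05 and the median was -0.04. The smallest p was that of the ryanodine receptor gene Ryr2 (log2 -0.33 ± 0.10), which passed without dehydrated replicate 1 (-0.43, adjusted p = 0.0322). Its other tested probe set was at 0.47. Sh3gl1, an endophilin that binds Arc, read 76.1 to 100.5 in dehydrated and 60.3 to 73.6 in control pools, so the groups did not overlap (log2 0.31 ± 0.11, adjusted p = 0.224). The same held for 3.36% of all tested probe sets, of which 0.580% passed in limma and 12.7% had an unadjusted p under 0.05. Shank1 differed by -0.18 (adjusted p = 0.212), with its other tested probe set at 0.11, and Homer3 by -0.38 (adjusted p = 0.413). The 2 tested partners of Npas4, Arnt2 and Maged1, differed by 0.06 (adjusted p = 0.682) and 0.15 (adjusted p = 0.279).

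Of 19 genes of calcium and cAMP signalling to transcription, 0 passed in limma, 2 had an unadjusted p under 0.05 and the median was 0.01. Creb1, which encodes the factor that binds the CRE, read 92.0 to 99.1 in dehydrated and 109.8 to 116.6 in control pools, so the groups did not overlap (log2 -0.23 ± 0.08, adjusted p = 0.224). Camkk1, a kinase that activates CaM kinases, did not overlap either (-0.13, adjusted p = 0.398). Over all tested probe sets 0.580% passed in limma, 12.7% had an unadjusted p under 0.05 and 3.36% had groups that did not overlap. The CREB coactivator gene Crtc1 differed by -0.28 (adjusted p = 0.331) and Crem, which encodes both activators and repressors at the CRE, by 0.20 (adjusted p = 0.454), while its other tested probe set was at -0.28.

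A few other activity-regulated transcripts passed the test in the same pools. Of 30 rapid ones, 1 rose and 29 did not pass, where 0.580% of all tested probe sets passed. An unadjusted p under 0.05 in limma was found for 5, against 12.7% of all tested probe sets. Of the 30, 22 were positive against 48.8% of all tested probe sets, and the median was 0.10. The one that rose was the zinc finger gene Giot1, at 76.3 ± 18.3 in dehydrated and 20.9 ± 2.92 in control pools (SD, n = 5 each). Every dehydrated pool lay above every control pool (log2 1.68 ± 0.16, adjusted p = 6.2e-05 in limma). Its control mean lay below the filter's mean signal of 24.1, so Giot1 passed the filter only through its dehydrated pools. The size of its rise is thus measured against dim control signals. Of 15 delayed ones, 2 rose, 1 fell and 12 did not pass (5 at an unadjusted p under 0.05), with a median of 0.03. Vgf, a secreted neuropeptide precursor, rose by 0.62 ± 0.06 (adjusted p = 6.2e-05) and the opioid precursor gene Pdyn by 0.81 ± 0.10 (adjusted p = 5.7e-04). The neuronal pentraxin gene Nptx1 fell to 394 ± 63.5 in dehydrated pools, against 563 ± 81.5 in control pools (log2 -0.52 ± 0.11, adjusted p = 0.0474, a call that the removal of any of 8 arrays and 4 other settings ended, up to 0.155). In the same pools all 6 markers of paraventricular neurons had positive differences (median 0.30, 3 at an unadjusted p under 0.05, none past the threshold). Their summed signal was 10730 to 13600 in dehydrated and 8437 to 11430 in control pools, and 4 dehydrated pools lay above every control pool. The sum is mostly that of the hormone genes Avp and Oxt, with means of 4956 and 4861 in dehydrated and 3531 and 4090 in control pools. The part of paraventricular neurons in these rises was not tested. The calls of Giot1, Vgf and Pdyn held in every setting of limma in which the gene was tested. The exact permutation test could call no probe set of the table (smallest adjusted p 0.236). These lists, with Giot1 among their entries, had been assembled with results of the same data known, so their counts are no independent evidence. Giot1 was the only rapid transcript called, so apart from it the rapid list, like the members, had no call.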

How the data were processed

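Total RNA of 10 pools was measured, 1 array per pool. The deposited intensity values are linear probe set signals from arrays handled in GCOS 1.2, per the submitters' processing notes. Algorithm, background step and detection calls are not given in the sources used here. How much background remains in dim signals is therefore not known here. Dim probe sets had wide intervals, and the number of arrays limits the precision. Groups came from the source names of the samples, and replicate numbers follow accession order.

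The 57 control probe sets were left out. Probe sets were named from the platform annotation. For the other lists symbols were updated through Entrez identifiers, and each gene was represented by its brightest probe set on average. The table was fitted as log2(signal + 3.72) with limma 3.58.1 in R 4.3.3 (lmFit, eBayes with trend, two-sided, Benjamini-Hochberg, threshold 0.05). The pseudocount is 0.1 of the median array median. Values of probe sets under the 40th percentile of mean signal are from the fit without a filter. Single values were also compared by exact two-sided permutation, and correlations by exact permutation within groups (14400 orders). The fit was tested on simulated data. Alternatives were other pseudocounts, filters, scalings and variance models, array weights and leaving out arrays. Leaving out 2 arrays together and the comparison with Fos were added after seeing the data.

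All probe sets of the members were named, then in each other list those past the threshold or, with none, up to 4 of the smallest p, the 3 genes most like Nr4a1, Egr1, Arc and Homer1, and Avp, Oxt, Crh, Trh and Sim1. Members and lists were chosen with earlier results of these data known.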

Additional observations from a re-analysis of the deposited data

Results flagged for a closer look

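In 74 groups of 5 pools (the members and the named genes of the other activity lists), 5 held a pool far from the other 4, where chance alone gives about 1 group in 20. Among the members, dehydrated replicate 4 had 11.4 for the dim Nr4a2 probe set 1387410_at, against 1.6 to 3.5 in the other dehydrated pools. Control replicate 2 had 25.9 for Egr2 probe set 1387306_a_at, against 15.3 to 16.5 in the other control pools. Among the partners, dehydrated replicate 5 had 758.9 for Shank1, against 635.0 to 653.0. Control replicate 1 had 311.8 for Ep300, against 350.3 to 358.3, and control replicate 5 had 113.9 for Crtc1, against 73.5 to 85.2.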

How the results depend on the processing

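In 173 combinations of a member's probe set past the filter and another setting of limma, none passed the threshold, and the smallest adjusted p was 0.0538 (Egr1). Differences close to 0 changed sign with 1 array left out: Nr4a1 ran from -0.05 to 0.15, Nr4a2 probe set 1369007_at from -0.03 to 0.27, and Homer1 probe set 1370454_at from -0.04 to 0.09. By pool left out, Nr4a1 was -0.034 (control replicate 3), -0.027 (dehydrated replicate 2) and -0.054 (dehydrated replicate 5), Nr4a2 -0.035 (dehydrated replicate 3), and Homer1 -0.039 (control replicate 3), -0.036 (dehydrated replicate 1) and -0.021 (dehydrated replicate 5), and its highest value was 0.087. The directions of Egr1, Arc, Nr4a3 and the other 2 Homer1 probe sets past the filter held in all settings.

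The count of changed probe sets over the table, 108, was 201 with array weights, 64 without a filter, 45 without the variance trend, 46 to 148 with 1 array left out and 289 without dehydrated replicate 2 and control replicate 5. The count among Egr partners, 1, was 0 with median centring, quantile normalization, no filter or no variance trend, and 0 to 1 with 1 array left out. That among synaptic partners, 0, was 0 to 1 with 1 array left out. The count of rapid transcripts was 0 with the 60th percentile filter, which leaves Giot1 untested. The median of the delayed list, 0.03, was 0.032 to 0.112 with 1 array left out and 0.115 without the 2 arrays named above. Causes were not tested beyond what is stated. No paired analysis was possible because the labels give no replicate numbers. Low signals with wide intervals limit what can be said of Egr2, Egr3 and Egr4.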

Other observations

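Within the list of 30 rapid transcripts, the r with Egr1 over the 10 pools (group means removed) ran from 0.86 for Fos through 0.62 for Cebpd and 0.60 for Klf10 to -0.64 for Zfp36 and -0.70 for Dusp6. The median was 0.00 and 15 of the 30 were positive, against a median of -0.04 for Egr1 with all tested probe sets. These values are a description over the same 10 arrays.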
